A study of Caenorhabditis elegans with 2 samples.

Results

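The nuclear hormone receptor genes of Caenorhabditis elegans were examined as places where a tagged zinc finger protein was found on chromatin. They were taken as all protein-coding genes of the WBcel235 annotation whose symbol begins with nhr-, which gave 269 of 19973 protein-coding genes. Chromatin immunoprecipitation with sequencing (ChIP-seq) had been carried out on whole young adults, 63 hours old, of strain RW12265, as 2 biological replicates, which make up the only group. The worms carried the allele st12265, which adds TY1, EGFP and 3xFLAG to Y56A3A.18 on chromosome III by CRISPR editing, and an anti-GFP antibody was used. Every worm in the study carried the tag. A whole animal gives the sum over all its tissues, and both replicates come from the same strain, so binding in a single tissue and effects of the tag could not be set apart. No untagged sample was analysed here.

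Nuclear hormone receptors are transcription factors with a zinc finger domain that binds DNA and a domain that can bind a small ligand such as a steroid or fatty acid. Ligand binding changes which cofactors the receptor recruits, so the family links metabolites and hormones to gene expression. Nematodes carry a much enlarged family. A small conserved core has clear relatives in insects and vertebrates, and most of the others are thought to descend from an ancestor resembling the vertebrate receptor HNF4. In the worm the family is known for control of moulting, dauer entry, fat and vitamin metabolism and responses to toxins.

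A gene was called bound when the summit of a peak in the authors' conservative list of both replicates lay from 1000 bp upstream to 500 bp downstream of the annotated 5' end of the gene. That list held 1687 peaks that had passed the authors' threshold on the irreproducible discovery rate (IDR), which is low for peaks whose rank recurs from one calling to another. The receptors bound were nhr-47, nhr-48, nhr-68, nhr-105, nhr-193 and nhr-255. They carried 7 summits, because nhr-105 had 2 entries. The gene nhr-68 is known as a regulator of the propionate shunt when vitamin B12 is low, and nhr-48 belongs to the conserved core, where daf-12 and nhr-8 are its closest worm relatives. The roles of the other 4 are not given here.

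The sequences under these peaks are shown first, because they differ in what they hold. All are plus-strand sequence of the RefSeq WBcel235 assembly, 5' to 3', and leave out untranslated regions. The first runs from the edge of the nhr-47 peak to the base before the gene's start, chrV:5505104-5505252, with CG dinucleotides in capitals.
nhr-47: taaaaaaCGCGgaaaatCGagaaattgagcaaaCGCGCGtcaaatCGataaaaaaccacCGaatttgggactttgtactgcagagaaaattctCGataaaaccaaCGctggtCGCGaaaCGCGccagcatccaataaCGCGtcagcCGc
Another lies around the nhr-48 summit at chrX:15707573-15707772, also with CG in capitals. It holds a run of 13 G bases.
nhr-48: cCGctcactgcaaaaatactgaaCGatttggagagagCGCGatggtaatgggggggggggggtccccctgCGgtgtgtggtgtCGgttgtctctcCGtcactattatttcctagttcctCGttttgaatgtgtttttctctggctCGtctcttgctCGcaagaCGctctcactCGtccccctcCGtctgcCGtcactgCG
Next, those at nhr-68 (chrV:11572991-11573179) and nhr-105 (chrIV:7049868-7050017), are marked the same way and hold few CG.
nhr-68: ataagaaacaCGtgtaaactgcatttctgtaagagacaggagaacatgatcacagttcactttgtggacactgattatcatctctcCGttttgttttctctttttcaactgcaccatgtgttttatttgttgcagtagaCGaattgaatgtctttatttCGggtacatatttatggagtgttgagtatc
nhr-105: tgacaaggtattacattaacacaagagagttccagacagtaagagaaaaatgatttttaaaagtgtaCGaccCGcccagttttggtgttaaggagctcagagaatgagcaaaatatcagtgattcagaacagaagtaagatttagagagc
Then follows the whole nhr-193 peak at chrV:16341893-16342192. Its capitals mark both arms of an inverted repeat, in which each arm is the reverse complement of the other.
nhr-193: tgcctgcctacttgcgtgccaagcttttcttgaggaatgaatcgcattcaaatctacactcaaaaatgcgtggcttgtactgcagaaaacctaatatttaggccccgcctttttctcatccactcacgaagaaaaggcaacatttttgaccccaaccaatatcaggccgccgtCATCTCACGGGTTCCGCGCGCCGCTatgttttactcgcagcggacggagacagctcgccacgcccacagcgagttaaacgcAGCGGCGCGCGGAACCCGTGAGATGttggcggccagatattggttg
The last lies in the nhr-255 peak at chrX:15742020-15742163, and its capitals mark a transfer RNA (tRNA) gene, WBGene00014626.
nhr-255: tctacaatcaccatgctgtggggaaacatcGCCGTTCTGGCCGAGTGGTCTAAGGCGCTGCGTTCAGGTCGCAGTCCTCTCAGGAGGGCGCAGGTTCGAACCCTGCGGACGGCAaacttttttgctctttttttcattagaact

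The peaks at nhr-47, nhr-48 and nhr-193 were rich in CG. In 300 bases centred on the summit the count of CG was 23 at nhr-47, 18 at nhr-48, 25 at nhr-193 and 15 at nhr-255. It was 7 at nhr-68 and 7 and 6 at the nhr-105 entries. The median over the 1687 conservative summits was 13 with an upper quartile of 17, and the 300 bases upstream of the 269 receptor starts had a median of 7, against 8 upstream of other genes. The arms of the repeat at nhr-193 were 25 bases long and 56 bases apart, and only 23 of the 1687 summit regions (1.36%) held an inverted repeat with arms of 20 bases or more. The arm words occurred 48 times in the genome, those at nhr-193 included. Cut into 10 stretches of 30 bases, the nhr-193 region had 2 that occur elsewhere, in up to 15 copies. The nhr-255 region also had 2 such stretches, in up to 3 copies. The other regions had none. The sources used here do not give the treatment of reads matching several places.

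The words AGACGC and GGTTCGA were looked up on both strands. Both were chosen with earlier results of these data known, so their shares in summit regions are not an independent finding. The word AGACGC was present at nhr-48 and at no other bound receptor. It was found in 17.8% of conservative summit regions, in 12.3% of the regions upstream of receptor starts and in 7.76% upstream of other genes. The median GC content was 40.7% in summit regions and 33.3% in either set of upstream regions, and the shares were not adjusted for it. The word GGTTCGA, part of the internal promoter element of tRNA genes, was present only at nhr-255, inside the tRNA gene, against 14.05% of conservative summit regions. Upstream of receptor starts GGTTCGA was found in 2.23% of regions, and upstream of other genes in 1.31%. A word is a description of the sequence and was not tested as a binding site.

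The strongest receptor peak lay at the start of nhr-47, on V at 5505104 to 5505403. Its summit was 1 bp inside the gene, in untranslated exon sequence (nhr-47, WBGene00003637, V 5505253 to 5509956, plus strand). The signal value of each peak is the authors' own measure of enrichment. It is used here to describe peaks within a list and to set the replicates' values side by side. The replicates' ranked lists had median signals of 15.2 and 12.7 and were not rescaled. An SD or a fold gap between replicates can therefore hold a difference between the lists. The signal from both replicates together was 172.8, rank 64 of 1687. Replicate 1 had its summit 5 bp upstream of the start with a signal of 76.7, and replicate 2 had it 1 bp upstream with 84.1, which gives 80.4 ± 5.26 (SD, n = 2). The replicates' summits were 4 bp apart. It was the only receptor gene with a summit past the threshold in all 4 thresholded lists, namely the conservative list, the other list of both replicates and each replicate's own.

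The nhr-47 summit was shared. It also fell in the window of dnj-19, a J-domain co-chaperone gene on the other strand, whose start is 397 bp away and thus farther than that of nhr-47. It lay inside the noncoding gene C24G6.10 as well, 7 bp from that gene's 5' end, and 207 bp from the span of C24G6.12.

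At nhr-68 the nearer gene was another. The summit on V at 11573030 (peak 11572880 to 11573179) lay 410 bp upstream of nhr-68 (WBGene00003658, V 11573440 to 11575709, plus strand) but 40 bp upstream of H12C20.7, which runs the other way. The start of nhr-101 was 2554 bp from it and its 3' end 481 bp. The signal from both replicates was 65.3. Replicate 1 gave 29.9 and replicate 2 gave 46.8 (38.4 ± 12.01, SD, n = 2), with summits 16 bp apart. The peak passed the threshold in replicate 2's own list and not in that of replicate 1, where its IDR was 16.6%.

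At nhr-255 and nhr-193 tRNA genes lay close by. The nhr-255 summit on X at 15742078 (peak 15741928 to 15742227) lay 532 bp upstream of the gene (WBGene00014068, X 15742610 to 15744298, plus strand) and inside the tRNA gene, 28 bp from that gene's 5' end. It was also inside the noncoding gene ZK678.11. The signal from both replicates was 81.99. Replicate 1 gave 53.9 and replicate 2 gave 22.1, so the replicates differed 2.43-fold, the widest gap among the 6 bound receptors (37.99 ± 22.4, SD, n = 2). It passed the threshold in replicate 1's own list, and its IDR in replicate 2 was 68.1%.

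The nhr-193 summit on V at 16342043 lay 265 bp upstream of the gene (WBGene00010215, V 16342308 to 16344401, plus strand). A tRNA gene, WBGene00014408, ended 192 bp away, and another, WBGene00014409, lay 370 bp away. Its signal was 58.7 from both replicates, 29.1 in replicate 1 and 27.7 in replicate 2 (28.4 ± 1.03, SD, n = 2). The replicates gave nearly the same signal, but neither had it past the threshold in its own list, and their summits were 57 bp apart.

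At nhr-48 and nhr-105 no other protein-coding, tRNA, small nuclear or small nucleolar RNA gene lay within 200 bp of the summit. The nhr-48 summit on X at 15707673 (peak 15707523 to 15707822) lay 540 bp upstream of the gene (WBGene00003638, X 15708213 to 15716875, plus strand). Its signal was 70.3 from both replicates, 33.0 in replicate 1 and 27.5 in replicate 2 (30.2 ± 3.93, SD, n = 2), with summits 5 bp apart. The stronger nhr-105 entry, on IV at 7049793 to 7050092, had its summit 213 bp upstream of the gene (WBGene00003695, IV 7050156 to 7053450, plus strand) and a signal of 69.5. Replicate 1 gave 35.2 and replicate 2 gave 27.8 (31.5 ± 5.21, SD, n = 2), with summits 37 bp apart. Neither gene was past the threshold in the list of a single replicate. At nhr-48 the IDR was 20.5% in replicate 1 and 8.10% in replicate 2. At nhr-105 it was 72.4% in replicate 1 and 3.34% in replicate 2.

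The second entry at nhr-105 came from the same replicate peaks as the first. Its summit was 8 bp upstream of the start and its signal 2.83, rank 1684 of 1687. In the authors' ranked list both entries were matched with the same pair of replicate peaks. Such sharing concerned 194 of the 1687 conservative entries (11.5%), and 43 of the 46 entries with a signal below 10 were of this kind.

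**Figure D1:**
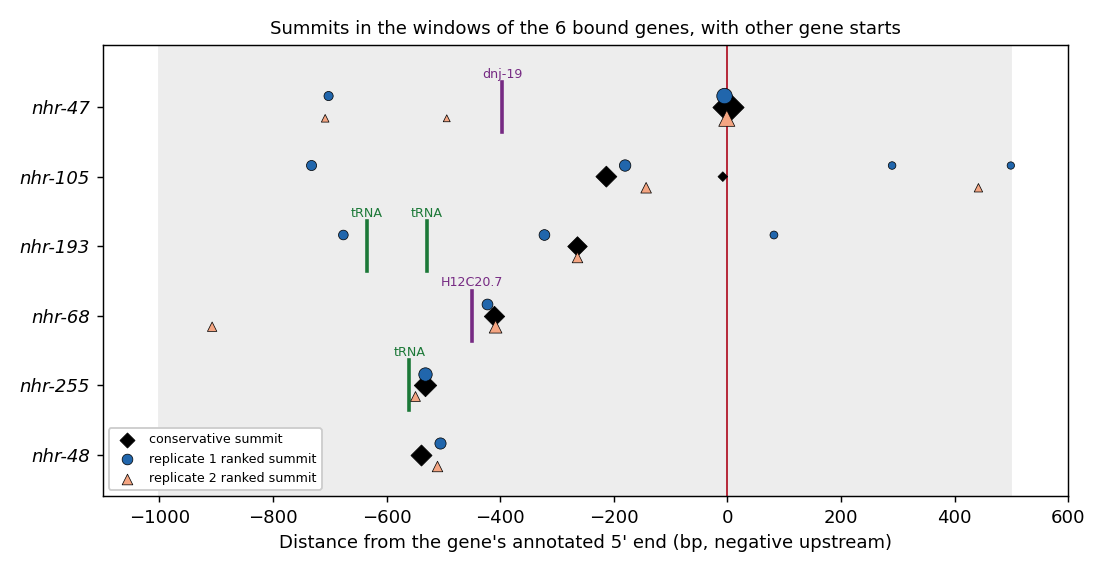
Position of summits in the windows of the 6 bound receptors. The x axis is the distance from the annotated 5' end in bp, the grey band is the window, the marker area grows with the signal, and vertical bars mark the starts of tRNA genes (green) and other protein-coding genes (purple), while other noncoding genes are not drawn. Both replicates have a summit within 70 bp of the stronger conservative summit of each gene.

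**Figure D2:**
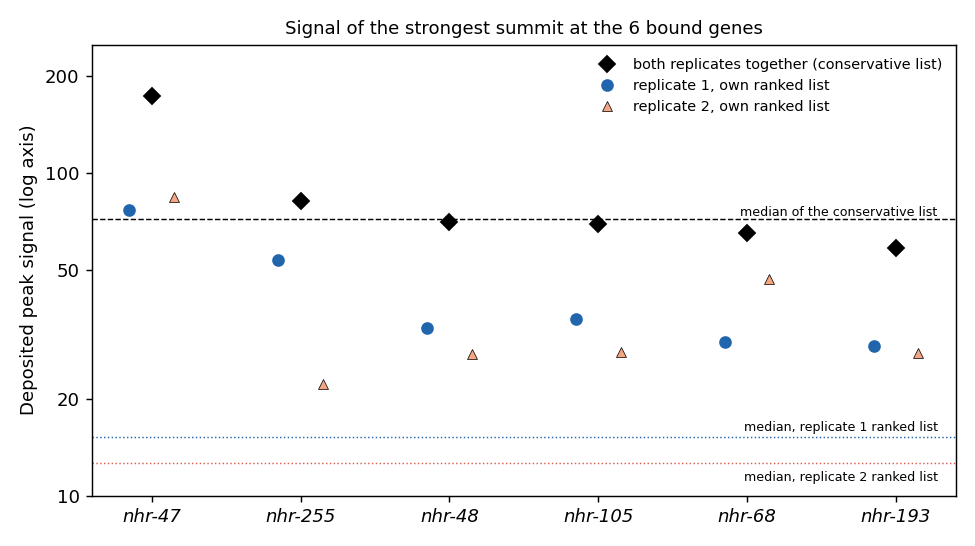
Signal of the strongest summit of each bound receptor on a log axis, from both replicates together (diamonds), replicate 1 (circles) and replicate 2 (triangles). Lines give list medians of 71.9 (conservative), 15.2 (replicate 1 ranked) and 12.7 (replicate 2 ranked). Only nhr-47 and nhr-255 lie above the conservative median.

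Over the family, 6 of 269 receptor genes were bound, or 2.23% (exact binomial 95% interval 0.823 to 4.79%). Among all protein-coding genes tested, 3.89% were bound, and among the 19704 others 771, or 3.91% (3.65 to 4.19%). The interval for the receptors holds the value of the other genes, so a difference was not detectable in this list with this number of genes. Of 140 genes in other transcription factor families (symbols beginning ceh-, hlh-, ztf-, fkh-, zip- or elt-), 5 were bound, or 3.57% (1.17 to 8.14%). Of 1310 chemoreceptor genes, another family enlarged in nematodes, 7 were bound, or 0.534% (0.215 to 1.10%). Genes lying side by side can share a peak, so these intervals cover the counting of genes only, and the differences between the families were not tested.

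The receptor genes lie unevenly in the genome. Chromosome V holds 167 of them (62.1%), against 24.5% of other protein-coding genes, and it had the lowest share of bound genes among the others, 2.57%. On V, 3 receptor genes were bound (1.80%). On X it was 2 of 23 (8.70%, interval 1.07 to 28.0%), above the 3.80% of other genes there, and on IV 1 of 33 (3.03%), against 3.79%. On I, II and III it was 0 of 23, 0 of 15 and 0 of 8, with upper exact limits of 14.8%, 21.8% and 36.9%, against 5.22%, 4.02% and 5.09% of other genes. With the chromosomes weighted as they are for the receptors, 3.21% of the other genes were bound, which corresponds to 8.62 genes of 269. In the outer parts of V (all but its middle, with the chromosome cut into 3 equal lengths), 2 of 126 receptor genes (1.59%) and 2.12% of other genes were bound. In the middle the count was 1 of 41 receptor genes (2.44%) and 3.36% of other genes. All 6 bound receptors lie on the plus strand, which holds 144 of the 269. Bound receptors lay a median of 56.0 kb from the next receptor gene and those not bound a median of 6.45 kb, while the median gene lengths were 2782.5 bp and 2309 bp.

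Genes with a tRNA gene in the window were more often called than those without. Among other protein-coding genes, 137 had a tRNA start in the window and 79 of these were bound (57.7%), against 3.54% of those without. Only 2 receptor genes had a tRNA start in the window, nhr-193 and nhr-255, and both were bound. Of the 267 receptor genes without, 4 were bound, or 1.498% (0.410 to 3.79%). The part of the tRNA genes in the calls at nhr-193 and nhr-255 was not tested.

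**Figure D3:**
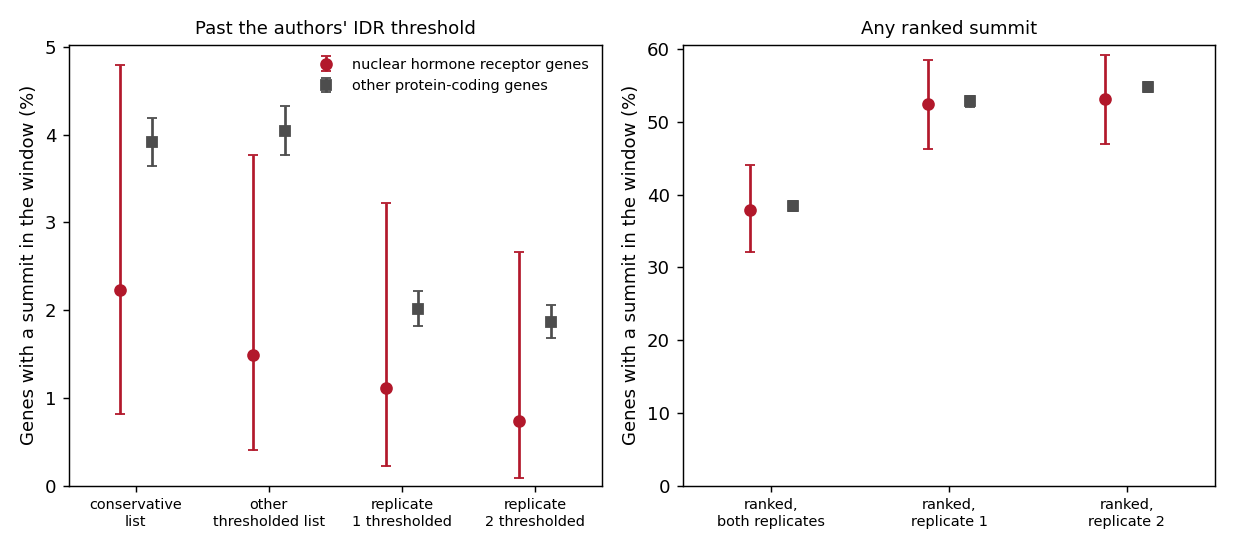
Percentage of genes with a summit in the window, for the 269 receptors (red circles) and the 19704 other protein-coding genes (grey squares), with exact binomial 95% intervals. Left, lists past the IDR threshold, where receptors range from 0.743 to 2.23% and other genes from 1.86 to 4.04%. Right, any ranked summit in both replicates (37.9% of receptors and 38.4% of other genes), in replicate 1 (52.4 and 52.8%) and in replicate 2 (53.2 and 54.7%).

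In the other thresholded lists the counts of receptors were small. The other list of both replicates held 4 (nhr-47, nhr-48, nhr-68 and nhr-255; 1.49%, interval 0.407 to 3.76%), against 4.01% of all genes tested and 4.04% of the other genes, which lies outside the receptors' interval. That share was not weighted by chromosome, and the difference was not tested. In the conservative list the weighting gave 3.21% in place of 3.91% for the other genes. Replicate 1's own list held 3 (nhr-47, nhr-204 and nhr-255; 1.12%, interval 0.231 to 3.22%), against 2% of all genes and 2.01% of the other genes. Replicate 2's own list held 2 (nhr-47 and nhr-68; 0.743%, interval 0.0902 to 2.66%), against 1.85% of all genes and 1.86% of the other genes. In each replicate's own list the receptors' interval holds the value of the other genes, so a difference was not detectable there. The nhr-204 call came from replicate 1 alone. Its summit there lay 478 bp upstream with a signal of 36.2, and replicate 2 had no ranked summit in that window. With both replicates together the nhr-204 peak had a signal of 44.5 and an IDR of 39.8%.

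In the ranked lists, which hold peaks past and not past the threshold, the receptor shares were close to those of all genes. The replicates' own ranked lists held 51496 and 52336 peaks, so a ranked summit is not a call of binding. In the ranked list of both replicates together 197 receptor genes (73.2%) had a summit in the window, against 71% of all genes. In replicate 1, 141 receptor genes (52.4%) had a ranked summit in the window, against 52.8% of all genes. In replicate 2 it was 143 (53.2%), against 54.7%. Both replicates had one at 102 receptors (37.9%, 32.1 to 44.0%), against 38.4% of all genes. Only replicate 1 had one at 39 receptors (14.5%, against 14.4% of other genes), and only replicate 2 at 41 (15.2%, against 16.3%). Neither replicate had one at 87 receptors (32.3%, against 30.9%). All 6 bound genes were among the 102. In 55 receptors (20.4%, 15.8 to 25.8%) a pair of summits from the replicates lay within 100 bp of each other, against 24.7% of all genes.

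The strength of the strongest ranked summit was also close to that of other genes. In replicate 1 its median was 17.7 over the 141 receptors, with quartiles of 13.5 and 22.6, against 17.5 over other genes. In replicate 2 the median was 14.1 (10.9 to 18.2), against 14.9. Among the strongest 10% of replicate 1's ranked peaks there were summits at 29 receptors (10.8%), against 9.46% of all genes, but in replicate 2 at 17 (6.32%), against 9.67%. In both replicates at that strength it was 7 receptors (2.60%, 1.05 to 5.29%), against 4.88%. Among the strongest 1% there were 2 receptors in replicate 1 (nhr-47 and nhr-255; 0.743%, against 1.26% of all genes) and 2 in replicate 2 (nhr-47 and nhr-68; 0.743%, against 1.26%). The gene nhr-47 was the only one in both, or 0.372%, against 0.701% of all genes. Across the 102 receptors with a summit in both, Spearman's rho between the replicates was 0.41, and across 7566 other genes it was 0.46. These genes share the same libraries and are not independent, so the values are descriptions. The strongest summit was higher in replicate 1 at 70 of the 102 receptors (68.6%) and at 65.0% of the other genes.

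Most receptors with a ranked summit were the nearest protein-coding start to at least 1 of their summits, while other summits in the same window were not counted. In replicate 1, 139 of the 141 receptors had at least 1 ranked summit to which their own start was the nearest (98.6%), against 90.0% of other genes. In replicate 2 it was 138 of 143 (96.5%), against 90.3%. At nhr-68 the conservative summit was nearer to H12C20.7, while the summits of the other 5 bound receptors had no nearer protein-coding start.

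**Figure D4:**
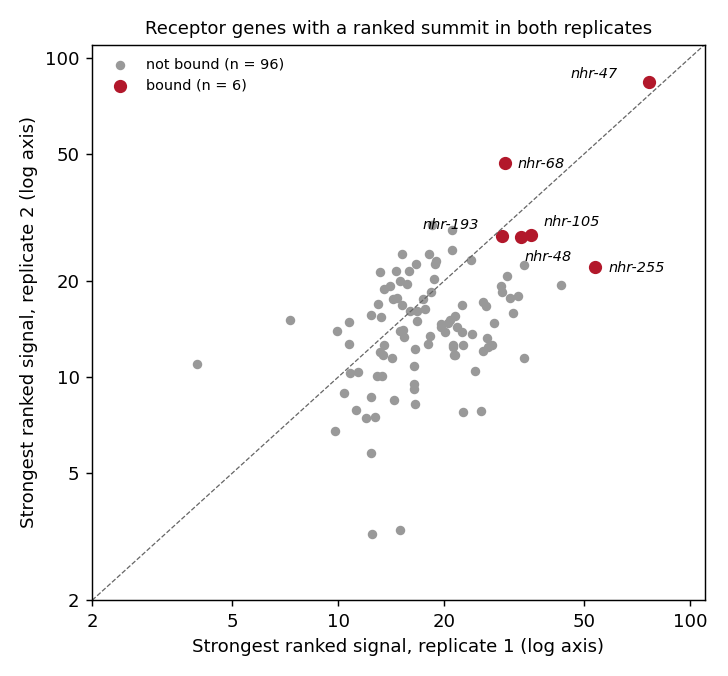
Strongest ranked signal in the window in replicate 1 (x axis) and replicate 2 (y axis), both log axes, for the 102 receptors with a ranked summit in both replicates, with the diagonal of equal signal. The 96 receptors not bound are grey and the 6 bound are red, and nhr-47 stands apart at 76.7 and 84.1.

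Receptors not bound but with strong ranked summits were led by nhr-88, at 43.0 in replicate 1 and 19.5 in replicate 2 (31.2 ± 16.7, SD, n = 2). Its summit lay 85 bp downstream of the start in replicate 1 and at -509 bp, upstream, in replicate 2. Next were nhr-102 (33.7 and 22.5), nhr-142 (25.4 as the mean of both), nhr-45 (32.5 and 17.9) and nhr-57 (21.1 and 28.8). Then came nhr-211 (24.2 as the mean of both), nhr-171 (24.2), nhr-119 (24.2), nhr-286 (23.9) and nhr-206 (23.6). Some of these means join different sites, as at nhr-88. The summits of replicates 1 and 2 lay at 106 and -709 bp for nhr-211 and at -512 and 91 bp for nhr-119. For nhr-286 they lay at 345 and -917 bp, and for nhr-206 at 474 and -187 bp. At nhr-102, nhr-142, nhr-45, nhr-57 and nhr-171 they lay closer together. In their own lists the lowest IDR of these 10 genes was 2.55%, for nhr-57 in replicate 2, and the others ranged from 6.81 to 86.5%.

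Among the conserved receptors named nhr-, which have clear relatives outside nematodes, 1 of 11 genes was bound, nhr-48 (9.09%, interval 0.230 to 41.3%), against 3.89% of all genes. Conserved receptors with another name, such as daf-12, are not in this count and are given below. Ranked summits in both replicates were present at 5 of the 11, against 38.4% of all genes. These 5 were nhr-48, the cholesterol and toxin regulator nhr-8 (19.7 and 14.6), nhr-6 of the spermatheca (21.2 and 12.6), nhr-41 (13.5 and 12.6) and nhr-85 (11.4 and 10.4), an early regulator of larval timing. At nhr-91 replicate 1 had a summit of 35.7 and replicate 2 none, at nhr-111 replicate 1 had 15.6 and replicate 2 none, and at nhr-239 only replicate 2 had a summit, of 12.7. The moulting regulators nhr-23 and nhr-25 and the tailless relative nhr-67 had no ranked summit in the window in either replicate.

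Among 10 receptors with known metabolic or defence roles, 9 had a ranked summit in replicate 1 (interval 55.5 to 99.7%), against 52.8% of all genes. In replicate 2 it was all 10 (69.2 to 100%), against 54.7%. The list was picked by hand with earlier results of these data known. It leaves out other receptors with such roles, nhr-8 among them, so these shares describe the list and not metabolic receptors as a class. Of these 10 genes 1 was bound, nhr-68 (interval 0.253 to 44.5%), against 3.89% of all genes. The gene nhr-10, which acts in the propionate shunt with nhr-68, had 18.9 and 23.2 in replicates 1 and 2. The gene nhr-114, a regulator of the methionine cycle, had 23.8 and 23.2. The fat metabolism regulator nhr-49 had 21.5 and 15.5, its partners nhr-80 and nhr-13 had 22.6 and 12.6 and 27.4 and 12.6, and nhr-66 had 8.94 in replicate 2 only. The pathogen-metabolite receptor nhr-86 had 22.4 and 13.8, nhr-14, known for control of iron uptake, had 15.2 and 14.05, and nhr-28 had 13.2 and 15.5. In replicate 1 the values other than that of nhr-68 lay below the lowest value of a bound receptor (29.1, nhr-193). In replicate 2 those of nhr-10 and nhr-114 lay above the lowest value of a bound receptor (22.1, nhr-255).

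Of the receptors that carry another name 0 of 5 were bound (upper exact 95% limit 52.2%), against 3.89% of all genes, so the count is too small to read. The steroid receptor gene daf-12 had a ranked summit of 10.2 in replicate 2 only, with the nearest conservative summit 1780 bp from its start. The neuronal receptors unc-55 (14.3, replicate 2 only), odr-7 (6.26, replicate 1 only) and fax-1 (14.4 and 16.5) and the sex determination gene sex-1 (15.8 and 11.2) had ranked summits below those of every bound receptor in the same replicate. Among 4 genes for cofactors and ligand synthesis 0 were bound (upper limit 60.2%), which is likewise too few to read. The corepressor gene din-1 had 34.1 and 20.5, the Mediator subunit gene mdt-15, a partner of nhr-49, had 15.045 and 14.1, and the dafachronic acid synthesis genes daf-9 and daf-36 had no ranked summit in the window.

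Receptor starts lay farther from conservative summits than other starts did. The median distance was 59.8 kb with quartiles of 27.8 and 104.6 kb, against 27.3 kb (9.72 and 59.7) for other genes. On V it was 87.2 kb against 38.02 kb, and on X 23.1 kb against 21.6 kb. Within 5 kb of a conservative summit lay 23 receptor starts (8.55%), against 15.5% of other starts. By chromosome this share was lower for receptors on V (6.59 against 10.98%), IV (12.1 against 15.6%), I (0 of 23 against 18.5%) and III (0 of 8 against 19.5%), and higher on X (21.7 against 16.8%) and II (3 of 15 against 15.3%). Neighbouring receptors share the same nearest summit, so these distances are not independent, and the difference was not tested.

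**Figure D5:**
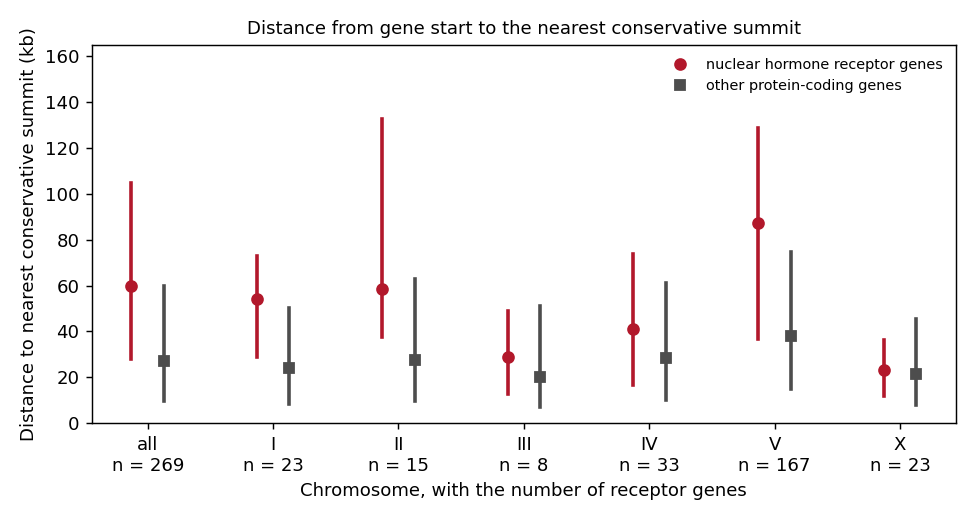
Median (point) and quartiles (line) of the distance in kb from gene start to the nearest conservative summit, for receptors (red circles) and other protein-coding genes (grey squares), over all chromosomes and for each. The receptor median exceeds that of other genes on every chromosome, most on V (87.2 against 38.02 kb) and least on X (23.1 against 21.6 kb).

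Summits just outside the window were found at several receptors. The nearest 5 were nhr-86 (1052 bp downstream of the start, in a coding exon, signal 48.6), nhr-249 (1770 bp upstream, 109.2), nhr-17 (1777 bp downstream, coding exon, 33.1), nhr-247 (1834 bp upstream, 102.4) and nhr-3 (1866 bp downstream, intron, 67.8). Just inside, the farthest summits were those of nhr-48 and nhr-255, at 540 and 532 bp upstream. The bodies of receptor genes held 9 conservative summits, that of nhr-47 included, in 7 genes. The same was not counted for other protein-coding genes, so whether this is many or few is unknown. The gene nhr-17 held 3 of them, and the strongest, with a signal of 120.7 at X 12665286 in an intron, lay within 200 bp of the tRNA gene WBGene00009555. Likewise the intron summit of nhr-41 (IV 1388282, signal 74.8) lay within 200 bp of the tRNA gene WBGene00023202. The summits in nhr-19 (intron, 71.3), nhr-61 (coding exon, 66.99), nhr-3 and nhr-86 had no annotated tRNA, snRNA or snoRNA gene within 200 bp. The nearest protein-coding start was that of W01D2.1 for the nhr-61 summit. For the nhr-17 summits at X 12665286 and X 12663983 it was that of nlp-76. The other body summits lay nearest to the start of their own gene.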

How the data were processed

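ChIP-seq peak lists from 2 biological replicates (1 group) were used as deposited. The deposited lists, named for assembly ce11, are ranked or thresholded by IDR, per replicate and for both replicates together. The sources used here name no aligner or peak caller. The peak signal was deposited by the authors and its scale is not stated. The score deposited by the authors is a scaled IDR rank of at most 1000, at least 830 in the thresholded lists. The −log10 values deposited in the ranked lists give the IDR, printed here as a percentage. No read counts were used, so depth is unknown and intervals cover the counting of genes only.

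Genes came from Ensembl release 115 (WBcel235), mitochondrial genes left out, and sequence from the RefSeq WBcel235 assembly. In the conservative list and the replicates' own ranked lists, every peak ended within the chromosome of the same name. The remaining lists were not checked for this. Coordinates are 1-based. Windows, distances and shares were computed with Python 3.11.15, numpy 2.4.6, pandas 2.3.3 and scipy 1.17.1, and the window assignment was tested on simulated summits. For a gene with several ranked summits the strongest in the window was taken, separately in each replicate. The values of a pair can therefore come from different sites in the window. A pair of replicate values is given as mean ± SD.

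The members, lists and words were chosen with earlier results of these data known, and no set test was made. Named genes were the receptors bound in any thresholded list, the 5 nearest outside the window, the 10 strongest not bound with ranked summits in both replicates, and fixed lists of conserved, metabolic, otherwise named and cofactor genes. The receptors with summits in their bodies and the neighbouring genes were named after their values were seen. Alternatives were the other lists, other windows, start definitions and strength limits.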

Additional observations from a re-analysis of the deposited data

How the results depend on the processing

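The 11 settings tried for the share bound include the main one and rework the same data, so they are not independent. None of them was weighted by chromosome. The share of receptors bound was below that of other genes in all 11, between 0.743% and 5.58%. It was 0.743% against 2.22% of other genes with peaks at or above the median signal, and 5.58% against 6.86% with each summit given to the nearest start at any distance. In the replicates' own lists it was 0.743% (without replicate 1) and 1.12% (without replicate 2), and nhr-47 was called in every setting. The number of bound receptors with no nearer protein-coding start was 5. It was 3 with the other list of both replicates, 3 with a window reaching 500 bp upstream and 200 bp downstream, 3 without summits near tRNA, snRNA or snoRNA genes, 2 with peaks at or above the median signal, and 1 and 3 without replicate 1 and replicate 2. It was 5 with any part of the peak in the window, 6 with any transcript's 5' end and 7 with 2000 bp upstream. The same was not counted for other bound genes, so these counts have no share to be set against. Ranked summits in both replicates were found at 37.9% of receptors. The share was 18.6% with the narrow window and 53.2% with 2000 bp upstream, against 20.2 and 53.3% of other genes. In the strongest 10% of peaks it was 2.60%, against 4.91%, and in the strongest 1% it was 0.372%, against 0.705%. Each replicate alone gave 52.4 to 53.2%, against 52.8 to 54.7% of other genes. The median distance of 59.8 kb (95% interval 47.3 to 70.2, order statistics) became 78.6 kb without summits near tRNA, snRNA or snoRNA genes, 85.9 kb with peaks at or above the median signal, and 90.3 to 101.2 kb in the lists of single replicates. It exceeded that of other genes in all 7 settings, which are likewise not independent. Fewer peaks in a list lengthen distances and lower counts by construction. With any transcript's 5' end, nhr-41 was bound too. No paired analysis was possible because the study has 1 group. With 2 replicates and 6 bound genes, single calls at nhr-48, nhr-105 and nhr-193 rest on both replicates together.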
